A study of Mus musculus with 16 samples.

Results

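Collagen genes were taken as all genes whose symbol is Col, a number, the letter a and a number, and the array named 37 of them with 55 probes, out of 15967 named genes. Each gene was read from its brightest probe over the 16 arrays, and undetected genes were kept and counted. The genes were split into 10 fibrillar, 8 basement membrane and 19 other collagens. Collagens are the main structural proteins of the extracellular matrix, and each molecule is wound from 3 chains that are hydroxylated and folded in the endoplasmic reticulum, secreted, trimmed and crosslinked. Fibrillar types such as I, III and V build the tensile fibres that fibroblasts make, the network-forming type IV carries basement membranes, and the remaining types form microfilaments, anchoring fibrils, coats on fibrils or transmembrane proteins. Endostatin, a fragment that restrains vessel growth, is cut from the end of type XVIII collagen.

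The study profiled total RNA from mouse embryonic fibroblasts (MEFs), the connective tissue cells grown out of mouse embryos, on Illumina BeadChip arrays, with 1 array for each of 16 conditions. Labels mark 8 arrays as MEFs transformed by RasV12 and E1A, an oncogenic Ras and an adenoviral protein that together override growth control, and all 8 carried a floxed Smad1 gene, either intact (Smad1f/f, titles with pbabe) or deleted (Smad1-/-, titles with cre). Smad1 is a transcription factor that carries signals of bone morphogenetic proteins such as BMP2. For each genotype there was 1 array of untreated cells at 0 h and 1 array at 12 h of BMP2, of Adriamycin (ADR, also called doxorubicin, which breaks DNA through topoisomerase II) and of the combination. A further 8 arrays carry the label of non-transformed primary MEFs at passage 2, either untreated or under BMP2, ADR or the combination, once at 8 h and once at 16 h. Doses are uncertain: BMP2 was at 100 ng/ml by the sample titles but at 50 ng/ml by the design text, and ADR at 0.3 uM by the titles but doxorubicin at 1 ug/ml by the design text. The labels do not say whether each transformed genotype was 1 clone, and the sets share no array, so the set and anything else that differed between the arrays of the sets cannot be told apart.

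Levels below are log2 of a probe's signal over the 75th percentile of its array, so 0 is as bright as that percentile and a step of 1 is a factor of 2. A probe counted as detected at a detection p-value below 0.05, and the number of arrays, with 1 per condition, limits the precision. Differences are given with the standard error (SE) of a linear model fitted with limma over all genes tested, with Benjamini-Hochberg adjusted p-values, and a gene passed at an adjusted p below 0.05. The spread behind these tests is the departure of the arrays from additive effects, not the spread of repeated cultures.

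Several genes went against the labels. Of the fibroblast markers, Thy1, Lum, Dcn and Fap were detected on all 8 arrays labelled transformed and on no array labelled primary. The other markers with a named probe, 7 of 11, were detected on at least 2 arrays labelled primary. The summed linear level of the 11 markers was 226 to 261 on the arrays labelled transformed and 83.9 to 129 on those labelled primary. Krt18, an epithelial keratin, and Esrp1, an epithelial splicing factor, ran the other way, with Esrp1 detected on all 8 arrays labelled primary and on none labelled transformed. The 10 epithelial markers were mixed: of 6 tested, 2 were higher with the transformed label (Krt7 and Krt19, the latter detected on 4 arrays labelled transformed and none labelled primary) and 3 lower (Krt18, Esrp1 and St14), while Epcam and Cdh1 were detected on none of the 16. On the arrays labelled primary, the BMP target Id1 stood at 1.56, 0.94, 1.24 and 0.54 on the 4 arrays with the ADR label and at 0.26, 0.01, 0.17 and 0.00 on the 4 without it, and the p53 target Cdkn1a at 5.15, 5.06, 5.89 and 5.86 with the BMP2 label and at 3.92, 4.0, 5.02 and 5.17 without it. On the arrays labelled transformed, given with Smad1f/f first, Id1 stood at 1.48 and 2.89 untreated and at 1.35 and 2.1 with BMP2. It stood at 0.61 and 2.98 with ADR and at 1.74 and 2.69 with both agents. Cdkn1a stood there at 4.58 and 4.68 untreated, 4.77 and 4.83 with BMP2, 4.32 and 4.33 with ADR and 5.28 and 5.44 with both. The brightest probe of Smad1 itself stood at 1.53, 1.32, 1.31 and 1.40 with the Smad1f/f label and at 1.04, 1.34, 1.51 and 1.72 with the Smad1-/- label, and whether it lies in the deleted stretch is not known here. Id1 was higher with the Smad1-/- label than with the Smad1f/f label in each of the pairs above. All groups are therefore named by their labels and not as checked identities.

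Promoter windows show where the results below start from in the genome. The RefSeq windows of build GRCm38.p6 covered 30 of the 37 genes with 32 windows, since Col9a1 and Col18a1 have a pair of starts each. The 250 bases before the start are given 5′ to 3′ for 3 genes: Col1a2, a fibrillar gene that was at least 28.8-fold higher with the transformed label; Col4a2, whose start lies beside that of Col4a1; and both starts of Col18a1, a gene with opposite BMP2 differences in the sets. Capitals mark matches, on either strand, to the TATA box (searched as TATAAA), the CCAAT box (searched as CCAAT), the GC box (searched as GGGCGG), the core of the SMAD binding element (searched as CAGAC) and its palindromic form (searched as GTCTAGAC). No matches overlapped in these windows.
Col1a2, chr6:4505368-4505617, plus strand: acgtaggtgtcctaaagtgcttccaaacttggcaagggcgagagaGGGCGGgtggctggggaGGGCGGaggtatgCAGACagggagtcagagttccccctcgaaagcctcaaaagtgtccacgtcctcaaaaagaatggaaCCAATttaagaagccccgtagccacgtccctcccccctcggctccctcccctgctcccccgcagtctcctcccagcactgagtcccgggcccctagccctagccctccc
Col4a2, chr8:11312555-11312804, plus strand: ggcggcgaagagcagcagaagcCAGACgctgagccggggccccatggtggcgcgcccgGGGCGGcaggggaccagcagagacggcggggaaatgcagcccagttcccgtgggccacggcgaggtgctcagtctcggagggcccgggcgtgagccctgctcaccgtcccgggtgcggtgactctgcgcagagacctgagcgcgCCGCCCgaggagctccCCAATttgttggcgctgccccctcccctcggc
Col18a1, chr10:77113706-77113955, minus strand: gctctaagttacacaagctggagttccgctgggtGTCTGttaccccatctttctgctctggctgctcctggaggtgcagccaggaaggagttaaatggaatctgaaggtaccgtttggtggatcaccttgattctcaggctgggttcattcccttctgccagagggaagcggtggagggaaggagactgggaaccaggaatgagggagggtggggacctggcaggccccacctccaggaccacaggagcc
Col18a1, chr10:77166531-77166780, minus strand: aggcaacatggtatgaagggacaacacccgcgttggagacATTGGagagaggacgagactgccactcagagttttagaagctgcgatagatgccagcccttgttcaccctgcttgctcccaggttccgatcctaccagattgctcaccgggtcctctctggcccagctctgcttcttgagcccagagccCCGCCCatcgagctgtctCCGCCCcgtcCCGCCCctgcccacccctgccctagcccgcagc

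Over the 32 collagen windows, GGGCGG was found in 19, against 32.7% of all 32817 windows of that length in the table, CCAAT in 13 (33.8% of all), CAGAC in 14 (42.2% of all), TATAAA in 5 (12.4% of all) and GTCTAGAC in 0 (0.168% of all). The collagen windows ranged from 35.2% to 76.4% in GC content, most of them above the median of 52.4% over all windows, and the counts were not matched for it. The windows of Col1a2 and Col4a2 held the GC box, the SMAD core and the CCAAT box, the downstream start of Col18a1 the SMAD core alone, and its upstream start the CCAAT box and the GC box. These matches are letters found in a window, not binding sites. The starts of the Col4a1 and Col4a2 windows lie 21 bases apart on opposite strands of chromosome 8. The gene bounds of Col4a1 (chr8:11198423-11312889, minus strand) run past the start of Col4a2. The bases shown before Col4a2 therefore lie within the Col4a1 gene. Which start of Col18a1 the probe's transcript used was not determined.

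Collagen transcripts were far more often detected with the transformed label. Of the 37 genes, 22 were detected on at least 2 arrays labelled transformed and 10 on at least 2 arrays labelled primary, beside 52.4% and 48.1% of all 19596 genes and unnamed probes. Of the fibrillar genes 7 and 1 passed that count, of the basement membrane genes 5 and 4, and of the other collagens 10 and 5. Single arrays detected 19 to 23 collagens with the transformed label and 7 to 11 with the primary label. Col5a1, Col4a1, Col4a2, Col4a5, Col18a1, Col16a1 and Col7a1 were detected on all 16 arrays. Col1a1, Col1a2, Col2a1, Col3a1, Col15a1 and Col9a3 were detected on all 8 arrays labelled transformed and on none labelled primary, a pattern that 3.75% of the 10973 genes tested showed, while 0.629% showed the reverse, which no collagen did.

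**Figure D1:**
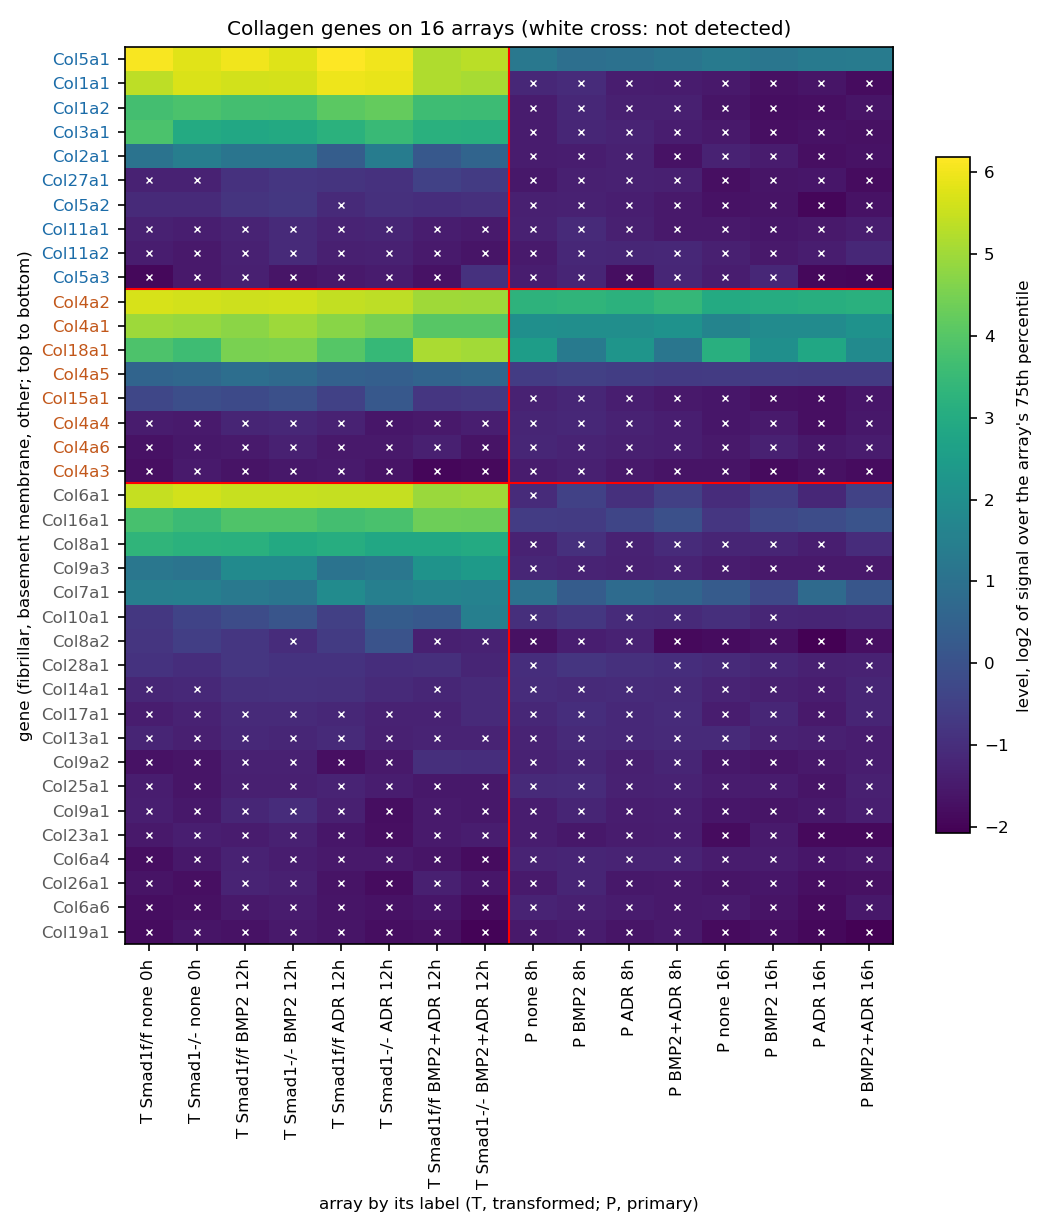
Level of each of the 37 collagen genes (rows, fibrillar in blue, basement membrane in orange, other in grey letters) on each of the 16 arrays (columns, 8 labelled transformed left of the red line and 8 labelled primary right of it). Colour gives the log2 level relative to the array's 75th percentile and a white cross an array on which the gene was not detected; Col1a1, Col1a2 and Col3a1 are bright on the left and crossed on all 8 arrays to the right.

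The remaining members were dim or undetected. Col11a1, Col4a3, Col4a4, Col4a6, Col6a4, Col6a6, Col9a1, Col19a1, Col13a1, Col23a1, Col25a1 and Col26a1 were detected on no array, as were 40.7% of all genes and unnamed probes. Col5a3 and Col17a1 were each detected on 1 array, the Smad1-/- array with both agents, and Col11a2 on 1 array labelled primary, with both agents at 16 h. Where a gene had several probes they did not always show the same thing: second probes of Col3a1 and Col7a1 stayed at -0.78 or below on every array, and of the 3 probes of Col6a1 the second stood at 4.17 to 4.97 with the transformed label and the third at -1.31 to -0.88.

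The first comparison sets all 8 arrays labelled transformed against all 8 labelled primary. Among the fibrillar genes, Col1a1, which encodes the main chain of type I collagen (chr11:94936224-94953042, GRCm38.p6), had levels of 5.37 and 5.70 untreated, 5.60 and 5.64 with BMP2, 5.96 and 5.92 with ADR and 5.19 and 5.10 with both agents on the arrays labelled transformed, the Smad1f/f array first in each pair. On the arrays labelled primary it was undetected, at -1.81 to -1.06 (median -1.48), so the sets did not overlap. Its signal was at least 97.0-fold higher with the transformed label (difference in level 7.02 ± 0.11, adjusted p = 1.02e-14). In bulk RNA, fewer cells that make collagen and less collagen RNA per cell cannot be told apart.

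Col1a2, the partner chain of type I collagen (chr6:4505618-4541543), stood at 3.58 to 4.23 (median 3.71) with the transformed label and undetected at -1.76 to -1.15 with the primary label, at least 28.8-fold higher (5.32 ± 0.093, adjusted p = 2.14e-14). Col3a1, the chain of the thin fibrils of type III collagen (chromosome 1), stood at 2.88 to 3.83 (median 3.14) and undetected at -1.75 to -1.18, at least 18.9-fold higher (4.70 ± 0.12, adjusted p = 6.6e-13). Col2a1, the cartilage fibril chain, stood at 0.21 to 1.45 and undetected at -1.75 to -1.29, at least 3.87-fold higher (2.42 ± 0.12, adjusted p = 7.13e-10). None of these 3 genes overlapped between the sets, as was so, with the transformed label higher, for 14.3% of all genes tested, and with the primary label higher for 17.1%. Col5a1, a chain of type V collagen, which nucleates and limits the width of type I fibrils, was the fibrillar gene detected in both sets, at 5.18 to 6.18 (median 5.90) and 0.94 to 1.35 (median 1.20), again without overlap and 24.6-fold apart (4.62 ± 0.12, adjusted p = 9.31e-13). Col5a2, its partner chain, and Col27a1, a fibrillar collagen of cartilage, were dim with the transformed label, at -1.11 to -0.75 and -1.28 to -0.48, and undetected with the primary label, at least 1.05-fold and 1.11-fold higher.

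All 5 basement membrane genes tested were higher, by 1.19 to 2.64. Col4a1 and Col4a2, the paired chains of the main type IV network, stood at 4.05 to 4.98 (median 4.73) and 4.96 to 5.67 (median 5.49) with the transformed label, and at 1.66 to 2.13 (median 2.00) and 2.98 to 3.41 (median 3.19) with the primary label. They were 6.25-fold (2.64 ± 0.14, adjusted p = 1.68e-09) and 4.62-fold higher (2.21 ± 0.098, adjusted p = 3.1e-10), with no overlap. Col4a5, a chain of the kidney-type network encoded on the X chromosome, stood at 0.42 to 0.91 against -0.69 to -0.50, a difference of 1.25 ± 0.056. Col18a1 was 4.42-fold higher (2.14 ± 0.32, adjusted p = 4.41e-05), at 3.45 to 5.14 against 1.16 to 3.13, and by 0.93 between the untreated arrays alone (adjusted p = 1.76e-06). Col15a1, its closest relative, stood at -0.76 to 0.20 and was undetected with the primary label, at least 1.66-fold higher (1.19 ± 0.10, adjusted p = 2.78e-07).

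Of the other collagens, Col6a1, a chain of the beaded microfilaments that tie cells to fibres, stood at 4.94 to 5.61 (median 5.45) with the transformed label and at -1.15 to -0.45 (median -0.75) with the primary label, 70.3-fold apart (6.14 ± 0.13, adjusted p = 1.69e-13). It was detected on 7 of 8 arrays labelled primary, at dim levels, so that this fold is measured against signals near background. Col16a1, a fibril-associated collagen, stood at 3.55 to 4.37 against -0.78 to 0.03 (4.28 ± 0.076, 19.4-fold), and Col8a1, a short-chain network collagen of vessel walls and cornea, at 2.87 to 3.34 against -1.40 to -0.92 (4.23 ± 0.082). Col8a1 was detected on 1 of 8 arrays labelled primary, so that its 18.8-fold difference is measured against signals near background. Col9a3, a chain of the collagen that coats cartilage fibrils, stood at 1.06 to 2.42 and undetected at -1.50 to -1.18, at least 6.27-fold higher (2.98 ± 0.15). Col7a1, the anchoring fibril of skin, stood at 1.14 to 1.89 against -0.30 to 1.02, a difference of 1.04 ± 0.092 without overlap. Col8a2, the second short-chain collagen, was detected on 5 arrays labelled transformed and none labelled primary, at least 1.18-fold higher, with overlap (-1.34 to 0.03 against -2.08 to -1.30). Col10a1, the hypertrophic cartilage collagen, at -0.75 to 1.5 and -1.21 to -0.74, differed by 1.08 ± 0.19 over all arrays and did not pass between the untreated arrays alone (adjusted p = 0.0717).

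In all, 20 of 22 collagens tested were higher with the transformed label and 0 lower, in a comparison in which 66.7% of all genes tested passed, 29.5% higher and 37.2% lower. The filter kept 12 of the 22 only through arrays labelled transformed, so that their direction was set by the filter. The 10 collagens detected on at least 2 arrays of each set were all higher. Col9a2 (0.01 ± 0.085) and Col14a1 (0.13 ± 0.060) did not pass, and Col28a1 passed at 0.14 ± 0.053 (adjusted p = 0.0357) but not between the untreated arrays alone (adjusted p = 0.286) nor without any 1 of 9 arrays (adjusted p = 0.0541 to 0.0825). The median difference was 2.18 over the 22 collagens and -0.049 over all genes tested. The deposited signals are not background corrected, so the folds of dim genes are understated: with background correction and quantile normalization the fold was 322 for Col1a1, 126 for Col6a1, 101 for Col1a2, 66.9 for Col3a1, 44.4 for Col8a1, 19.3 for Col9a3, 12.0 for Col2a1, 3.90 for Col15a1 and 3.38 for Col10a1. For genes undetected with the primary label these folds are set by noise and by the offset of 16 added in the correction, and are not measured sizes. As the mean of all probes of a gene, dim ones included, the difference was 2.54 for Col3a1 and 4.15 for Col6a1, instead of 4.70 and 6.14.

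**Figure D2:**
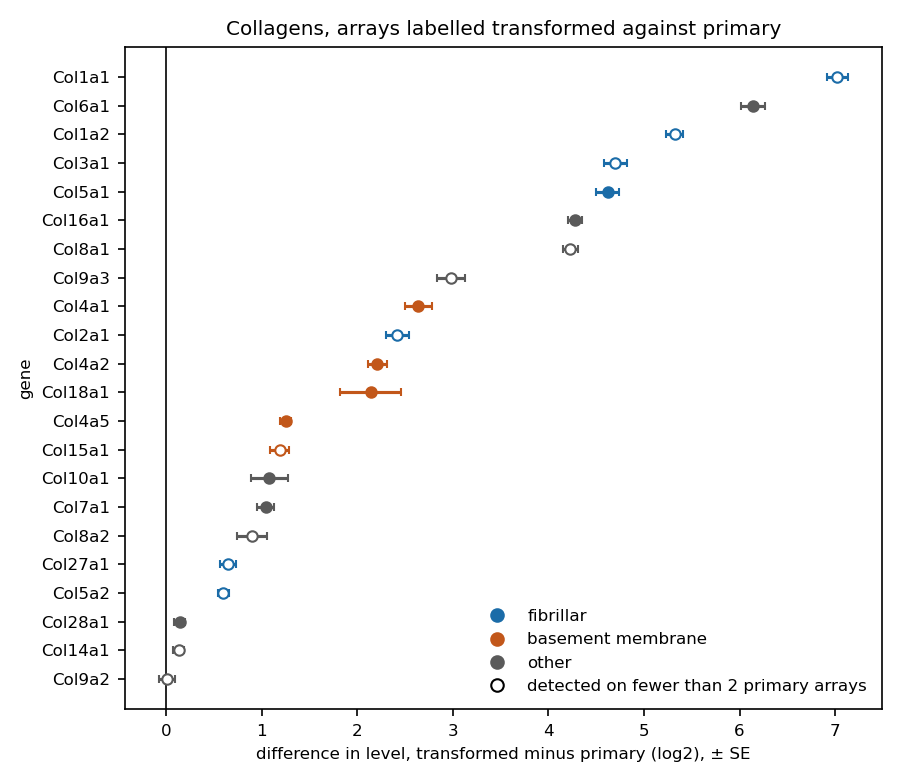
Difference in level between the 8 arrays labelled transformed and the 8 labelled primary (x axis, log2, bars are the SE from limma) for the 22 collagens tested, coloured by class. Open circles are genes detected on fewer than 2 arrays labelled primary; Col1a1 is at 7.02, Col9a2 and Col14a1 are near 0.

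Genes that make, trim and crosslink collagen also stood higher with the transformed label. Of 19 genes tested for collagen biosynthesis and folding, 18 were higher and 0 lower, with a median difference of 1.37, beside 29.5% higher, 37.2% lower and a median of -0.049 over all genes tested: Serpinh1, the collagen chaperone Hsp47, by 2.92 ± 0.073, P4ha2, a prolyl hydroxylase subunit, by 2.14 ± 0.072, and Plod3, a lysyl hydroxylase, by 2.05 ± 0.076. The cargo receptor gene Mia3 was at -0.20 ± 0.094 (adjusted p = 0.0827). Of 8 genes for procollagen processing and crosslinking, 7 were higher, but 4 of the 8 passed the detection filter only through arrays labelled transformed, which favours that direction. Lox and Loxl1, oxidases that start the crosslinks, were undetected on all 8 arrays labelled primary and at least 205-fold and 75.6-fold higher, and Pcolce, an enhancer of procollagen cleavage, differed by 2.30 ± 0.079.

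Of 5 collagen receptors tested, 2 of them only through arrays labelled transformed, 3 were higher: Itga11, the alpha chain of a fibrillar collagen integrin, was undetected with the primary label and at least 51.4-fold higher, Itgb1, its beta chain, differed by 1.51 ± 0.073, and Ddr1, a receptor kinase, by 1.62 ± 0.26. Ddr2, its relative that binds fibrillar collagen, was at 0.13 ± 0.19 (adjusted p = 0.572). All 11 fibril-associated proteoglycans and glycoproteins tested were higher, among them Bgn (biglycan), at least 58.9-fold, Dcn (decorin), at least 14.7-fold, and Fn1 (fibronectin), by 3.59 ± 0.079, and 9 of the 11 were undetected with the primary label, so that the filter set their direction. Of 11 laminins and other partners of type IV collagen, 3 of them tested only through arrays labelled transformed, 6 were higher, with Nid1, the nidogen that links laminin to collagen, at 2.61 ± 0.094 and Hspg2 (perlecan) at 1.43 ± 0.063. Lama5, a laminin chain, was lower by this comparison, at -0.53 ± 0.20 (adjusted p = 0.0333). Mia3, Ddr2 and Lama5 are named because they stood apart from their lists, after their values were seen.

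**Figure D3:**
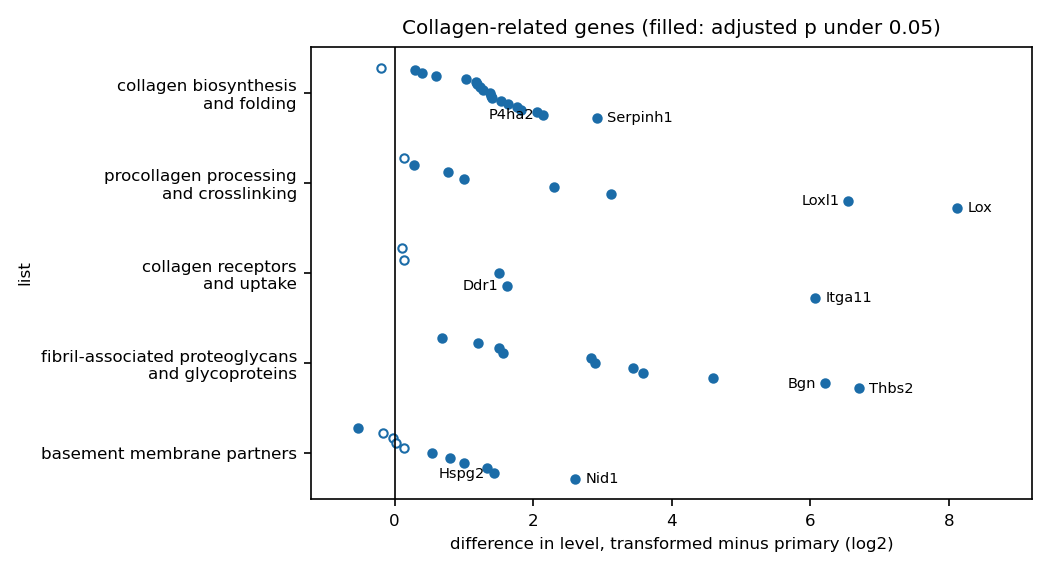
Difference in level, transformed minus primary (x axis, log2), of each tested gene in 5 lists of collagen-related genes (rows), filled where limma's adjusted p was below 0.05. The 2 highest genes of each list are named; Lox lies at 8.12 and all but 1 of the biosynthesis genes lie right of 0 and passed.

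Of the other marker lists in this comparison, fibroblast markers were 10 higher and 1 lower of 11, with 3 (Fn1, Lum and Dcn) shared with the matrix list above and 4 (Thy1, Lum, Dcn and Fap) tested only through arrays labelled transformed. Epithelial markers were 2 higher and 3 lower of 6, blood markers 2 and 0 of 3 with Ptprc undetected throughout, and muscle markers 2 and 1 of 3 with Myod1 and Myog undetected throughout. Endothelial markers were 1 and 0 of 1 with Pecam1 and Cdh5 undetected throughout, chondrocyte markers 2 and 0 of 3, endoderm and trophoblast markers 0 and 2 of 5, and pluripotent markers 0 and 0 of 1. The blood markers Lyz2 and Laptm5, the muscle markers Des and Acta1 and the chondrocyte marker Comp were undetected with the primary label. They were tested only through arrays labelled transformed, which favours higher calls with that label. The part of such cells in the collagen differences was not tested.

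The second comparison asks whether collagens differ with the Smad1 label within the transformed set, 4 arrays against 4. None of the 22 collagens passed by limma, while 0.0974% of the 10269 genes tested did (0.0876% higher, 0.00974% lower) and 1078 of all had an unadjusted p below 0.05. The median over the collagens was 0.00, against -0.016 over all genes. Col10a1 was higher with the Smad1-/- label in 4 of 4 pairs (0.68 ± 0.14, adjusted p = 0.117) and Col15a1 in 4 of 4 (0.27 ± 0.095, adjusted p = 0.359). Col2a1 was at 0.45 ± 0.13 (adjusted p = 0.242) and Col18a1 at -0.23 ± 0.087 (adjusted p = 0.409). Type I collagen stood close to 0, with Col1a1 at 0.06 ± 0.077 and Col1a2 at 0.05 ± 0.063. No gene of the 5 collagen-related lists passed either. With the Smad1-/- label the Smad1 probe was not lower in every pair and the BMP target Id1 was higher in each, as given above.

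The third comparison sets BMP2 at 12 h against the untreated arrays at 0 h in the transformed set, 2 arrays against 2, so that the agent and the time cannot be told apart. Col18a1 stood at 3.87 and 3.63 untreated and at 4.53 and 4.54 with BMP2, which was 0.79 ± 0.12 higher (adjusted p = 0.00033). Col9a3 stood at 1.21 and 1.09 and then at 1.87 and 1.86, 0.71 ± 0.10 higher (adjusted p = 0.000195). The pairs did not overlap in either gene. The type I chains did not pass: Col1a1 was at 0.09 ± 0.11 (adjusted p = 0.521) and Col1a2 at -0.09 ± 0.089 (adjusted p = 0.403).

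In this comparison 6 collagens were higher and 0 lower of 22 with 51.2% of all genes passing, 26.8% higher and 24.4% lower. The others were the dim Col27a1, undetected at 0 h and at least 1.24-fold higher, Col10a1 (0.55 ± 0.20), Col5a2 (0.31 ± 0.088) and Col9a2 (0.32 ± 0.095), which was undetected on all 4 arrays compared. With background correction Col9a2 was at 0.10 (adjusted p = 0.508) and Col5a2 missed (0.0952), and with quantile normalization Col9a2 was at 0.11 (0.417) and Col5a2 (0.175) and Col10a1 (0.0633) missed, as Col10a1 did with a robust variance (0.155). Under scaling to the array median the split was 3 higher (Col18a1, Col9a3, Col27a1) and 6 lower (Col3a1, Col7a1, Col8a1, Col1a2, Col4a1, Col4a2), while that scaling moved the median over all genes from 0.062 to -0.125 and the share of higher calls from 52.3% to 28.2%. Col10a1 (0.26, adjusted p = 0.392), Col9a2 (adjusted p = 0.124) and Col5a2 (adjusted p = 0.0594) no longer passed without the Smad1f/f BMP2 array, nor without the untreated Smad1-/- array, where Col10a1 was at 0.32 (adjusted p = 0.348), Col9a2 at 0.32 (0.0726) and Col5a2 at 0.24 (0.109). Without the Smad1-/- BMP2 array Col10a1 was at 0.85 (adjusted p = 0.0127). Col9a2 also missed without the untreated Smad1f/f array (adjusted p = 0.0768) and Col5a2 without the Smad1-/- BMP2 array (adjusted p = 0.097).

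ADR alone at 12 h against 0 h, also 2 arrays against 2, changed few collagens. Col1a2 rose from 3.72 and 3.84 to 4.11 and 4.23 (0.39 ± 0.089, adjusted p = 0.0348), and the dim Col27a1 from undetected at -1.28 and -1.28 to -0.84 and -0.91 (0.40 ± 0.095, adjusted p = 0.0367). They were the 2 higher and 0 lower of 22, beside 5.14% of all genes, 1.39% higher and 3.75% lower. Col1a1 moved alongside its partner chain, to 5.96 and 5.92 (0.41 ± 0.11), and narrowly missed (adjusted p = 0.0592). Neither call lasted when any 1 of the 4 arrays compared was left out: the adjusted p of Col1a2 was then 0.105 to 0.26 and that of Col27a1 0.104 to 0.248. Without either BMP2 array Col1a2 also missed (adjusted p = 0.0516 without the Smad1f/f and 0.0507 without the Smad1-/- array). Background correction (adjusted p = 0.0838 for Col1a2 and 0.0877 for Col27a1), scaling to the array median (0.07 and 0.0569) and no detection filter (0.057 and 0.0574) also ended both calls.

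BMP2 and ADR together gave levels that neither gave alone, at the same 12 h. When ADR was added to BMP2, Col4a1, Col4a2, Col5a1 and Col6a1 fell, while the other type IV and V chains tested, Col4a5 (-0.21 ± 0.095, adjusted p = 0.099) and Col5a2 (-0.17 ± 0.088, adjusted p = 0.135), did not pass. Col4a1 stood at 4.76 and 4.96 with BMP2 and at 4.05 and 4.05 with both agents (-0.81 ± 0.10, adjusted p = 0.00018). Col4a2, with which it shares its start region shown above, went from 5.56 and 5.58 to 4.99 and 4.96 (-0.60 ± 0.085, adjusted p = 0.000365). The arrays with both agents were the lowest of the set for both genes.

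Col5a1 fell from 6.01 and 5.78 to 5.18 and 5.33 (-0.64 ± 0.11, adjusted p = 0.00118), and Col6a1 from 5.49 and 5.49 to 4.94 and 5.01 (-0.52 ± 0.087, adjusted p = 0.000996). In each of these 4 genes every array with both agents lay below every other array labelled transformed, and their calls held under each scaling, filter, probe rule and variance model tried and without each single array. The share of all genes whose arrays separate in this way was not counted, here or in the other agent comparisons. Col1a1 fell from 5.60 and 5.64 to 5.19 and 5.10 (-0.48 ± 0.11, adjusted p = 0.00567), a call lost with background correction (adjusted p = 0.0568) and without the Smad1-/- array with both agents (adjusted p = 0.0741). Col1a2 was at -0.09 ± 0.089 (adjusted p = 0.419).

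Other collagens went up. Col18a1 rose from 4.53 and 4.54 to 5.14 and 5.02 (0.54 ± 0.12, adjusted p = 0.00549), its highest levels of the 16 arrays, and Col16a1 from 3.89 and 3.91 to 4.37 and 4.32 (0.44 ± 0.098, adjusted p = 0.00471). Col9a3 rose from 1.87 and 1.86 to 2.17 and 2.42 (0.43 ± 0.10, adjusted p = 0.00776). None of these pairs overlapped. The calls of Col18a1 and Col16a1 were lost without the Smad1f/f BMP2 array (adjusted p = 0.0813 and 0.0511), that of Col18a1 also without the Smad1-/- array with both agents (0.0622), and that of Col9a3 without that array (0.101) or the Smad1-/- BMP2 array (0.0755).

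In all, 7 collagens were higher and 8 lower of 22 when ADR was added to BMP2, beside 40.7% of all genes, 17.7% higher and 22.9% lower. The rest were Col2a1 (-0.74 ± 0.19), Col15a1 (-0.59 ± 0.13) and Col28a1 (-0.28 ± 0.088) among the lower and Col10a1 (0.88 ± 0.20), Col7a1 (0.42 ± 0.11), Col9a2 (0.34 ± 0.095) and Col27a1 (0.28 ± 0.095) among the higher. Col9a2 was detected only on the arrays with both agents and tested through them alone, which favours the higher direction. Without the Smad1f/f BMP2 array, Col2a1 (-0.42, adjusted p = 0.13), Col15a1 (0.0535), Col28a1 (0.0863), Col7a1 (0.0664), Col9a2 (0.0502) and Col27a1 (0.17, adjusted p = 0.321) missed. Without the Smad1-/- BMP2 array, Col10a1 (adjusted p = 0.0817), Col28a1 (0.188), Col7a1 (0.0524) and Col9a2 (0.127) missed. Without the Smad1-/- array with both agents, Col2a1 (adjusted p = 0.0785), Col15a1 (0.0795), Col28a1 (0.209), Col7a1 (0.0795) and Col27a1 (0.0515) missed, as Col27a1 did without the Smad1f/f array with both agents (0.249) or either untreated array (0.0513). Col28a1 also missed under 3 scalings (adjusted p = 0.0856 to 0.429), Col7a1 as the mean of its probes (0.164) and Col10a1 with a robust variance (0.0544). Col10a1 stood at 0.20 with Smad1f/f and 1.5 with Smad1-/- under both agents, and without the latter array the difference was 0.46 (adjusted p = 0.0862). Without the Smad1-/- array with both agents 5 collagens passed, and without the Smad1f/f BMP2 array 7. Scaling to the array median gave 7 higher and 7 lower, while it moved the median over all genes from -0.08 to 0.092 and the share of higher calls from 43.6% to 76.4%.

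**Figure D4:**
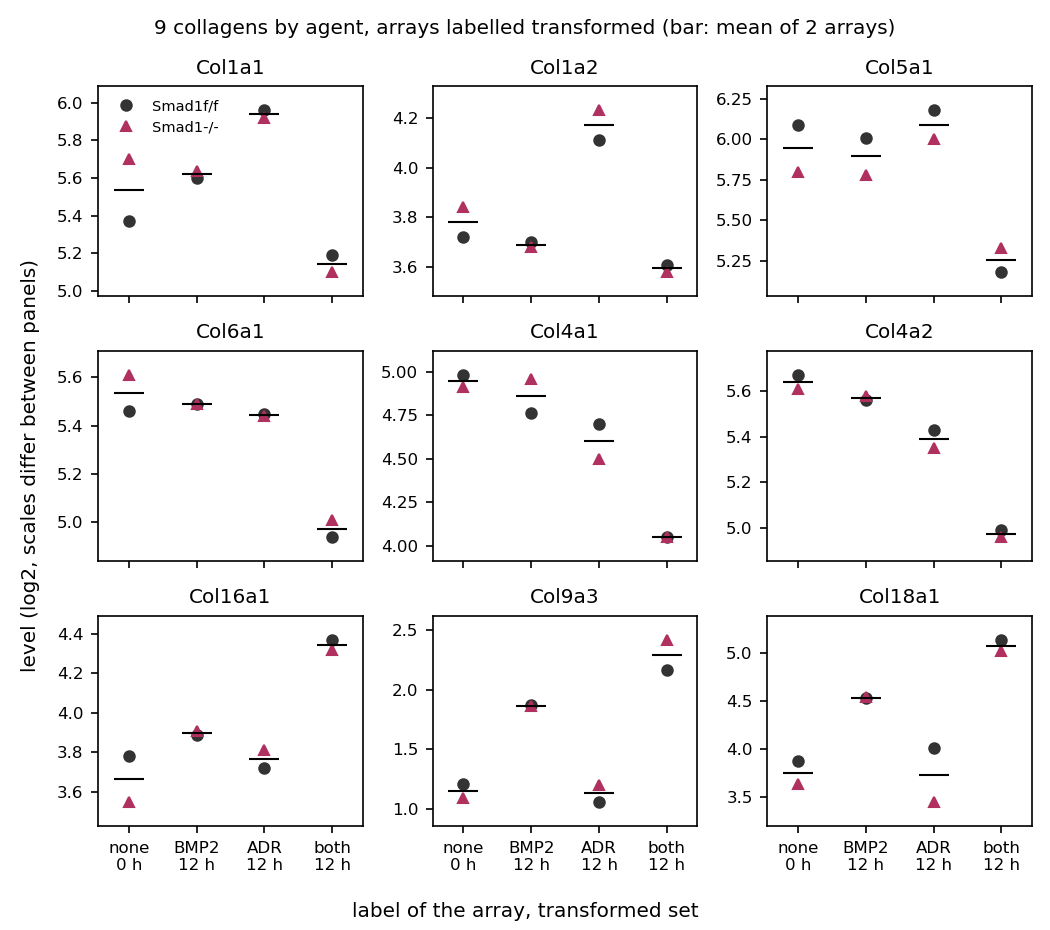
Levels (y axis, log2, scale set per panel) of 9 collagens on the 8 arrays labelled transformed, by agent label (x axis), with circles for Smad1f/f, triangles for Smad1-/- and bars for the mean of the 2 arrays. Col4a1, Col4a2, Col5a1 and Col6a1 are lowest with both agents, and Col18a1, Col16a1 and Col9a3 highest.

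The same pattern was read from the other side when BMP2 was added to ADR, a comparison that shares the arrays with both agents with the one above. Col1a1 went from 5.96 and 5.92 to 5.19 and 5.10 (-0.79 ± 0.11, adjusted p = 9.09e-05), Col1a2 from 4.11 and 4.23 to 3.61 and 3.58 (-0.58 ± 0.089, adjusted p = 0.000214) and Col5a1 from 6.18 and 6.0 to 5.18 and 5.33 (-0.84 ± 0.11, adjusted p = 7e-05). Every array with both agents lay below both ADR arrays in these genes. Col4a1 (-0.55 ± 0.10), Col4a2 (-0.42 ± 0.085), Col6a1 (-0.47 ± 0.087) and Col15a1 (-0.60 ± 0.13, and -0.33 without the Smad1-/- ADR array, adjusted p = 0.0358) were also lower. Col8a2 was detected on both ADR arrays, at -0.63 and 0.03, and on neither array with both agents, at least 1.85-fold lower (adjusted p = 0.000339), or 3.17-fold with background correction. As the gene was undetected with both agents, the latter fold depends on noise and the correction's offset and is not a measured size.

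Col18a1 went the other way, at 4.01 and 3.45 with ADR and 5.14 and 5.02 with both agents (1.35 ± 0.12, adjusted p = 4.14e-06). Col9a3 rose from 1.06 and 1.20 to 2.17 and 2.42 (1.16 ± 0.10, adjusted p = 3.43e-06), and Col16a1 from 3.72 and 3.81 to 4.37 and 4.32 (0.58 ± 0.098, adjusted p = 0.000417). Col9a2, the partner chain of Col9a3, was detected on the 2 arrays with both agents, at -0.96 and -0.99, and on no other of the 16, at least 1.10-fold higher (adjusted p = 0.000145). It passed the detection filter only through those 2 arrays, which favours that direction. Col10a1 rose by 0.95 ± 0.20, or by 0.53 without the Smad1-/- array with both agents (adjusted p = 0.0339). In all, 6 were higher and 9 lower of 22, beside 57.4% of all genes, 26.7% higher and 30.7% lower. Col27a1 (0.32 ± 0.095) missed without the Smad1-/- ADR array (adjusted p = 0.077) and without the Smad1f/f array with both agents (0.134). Col2a1 (-0.48 ± 0.19, adjusted p = 0.0465) was at -0.08 (0.682) without the Smad1-/- ADR array and at -0.88 (0.000679) without the Smad1f/f ADR array. It missed without either array with both agents (0.116 and 0.203) or either untreated array (0.0707 and 0.0712), and under 3 scalings (0.0505 to 0.0833), as the mean of its probes (0.0527) and with a robust variance (0.126).

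The interaction, which asks whether the effect of ADR with BMP2 differed from that without it, passed for 2 collagens above 0 and 7 below it of 22, beside 22.4% of all genes, 12.5% above and 9.89% below. Col1a1 had the interaction -0.88 ± 0.15 (adjusted p = 0.00313) and Col5a1 -0.79 ± 0.16 (adjusted p = 0.00593), and both held under every scaling and without each single array. The other 7, Col1a2, Col15a1, Col4a1, Col6a1, Col8a2, Col18a1 and Col9a3, each missed without any 1 of 5 or more arrays (adjusted p = 0.0502 to 0.216). Passing collagens numbered 2 without the Smad1f/f array at 0 h, 2 without the Smad1-/- array with both agents, 3 without the Smad1f/f BMP2 array, 4 without the Smad1-/- BMP2 array and 5 without the Smad1-/- ADR array, where Col15a1 was at -0.39, Col8a2 at -0.45 and Col18a1 at 0.34 instead of -0.66, -0.78 and 0.57, and without the Smad1f/f BMP2 array Col8a2 was at -0.49. Scaling to the array median gave 4 above 0 and 2 below, and moved the median over all genes from -0.053 to 0.16. The 0 h arrays enter this term, so that agent and time cannot be told apart in it.

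Related genes moved in both directions with the agents in the transformed set. When ADR was added to BMP2, where 17.7% of all genes were higher and 22.9% lower, 1 of 19 biosynthesis genes was higher, Plod2, a lysyl hydroxylase of crosslinking sites (0.57 ± 0.16), and 7 were lower, among them Fkbp14 (-0.54 ± 0.086), a prolyl isomerase, and Plod3 (-0.51 ± 0.088). Lox (-0.43 ± 0.090) and Loxl1 (-0.30 ± 0.090) were the 2 lower of 8 crosslinking genes, with 0 higher. Itga11 (-0.55 ± 0.10), Itgb1 (-0.40 ± 0.086) and Ddr2 (-0.44 ± 0.11) were lower and Ddr1 (0.84 ± 0.12) higher of 5 receptors. Of 11 proteoglycans and glycoproteins 1 was higher and 4 lower, with Dcn at -0.70 ± 0.13, and of 11 basement membrane partners 3 were higher and 3 lower, with Lamc1 at -0.47 ± 0.086 and Agrn at 0.67 ± 0.085. When BMP2 was added to ADR, where 26.7% of all genes were higher and 30.7% lower, Plod2 was 1.36 ± 0.16 and Ddr1 1.37 ± 0.12 higher, and Sec24d, a coat protein of procollagen export, was lower at -1.54 ± 0.11.

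Markers of other cell types moved on the same arrays. The summed level of 11 fibroblast markers was 226 to 235 with both agents, 259 to 261 with BMP2, 234 to 240 with ADR and 240 to 252 untreated. The summed level of 10 epithelial markers was 8.52 to 10.6 with both agents, 4.96 to 5.26 with BMP2, 3.72 to 4.37 with ADR and 3.94 to 3.96 untreated, with Epcam, Cdh1, Krt8, Cldn7 and Esrp1 undetected throughout. Blood markers summed to 5.99 to 6.02 with both agents against 3.02 to 4.48 on the other arrays, with Ptprc undetected. Muscle markers summed to 3.60 to 3.66 with both agents against 4.45 to 5.2 on the other arrays labelled transformed, with Myod1 and Myog undetected. Their part in the collagen differences was not tested.

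In the set labelled primary, the BMP2 label against no BMP2 was 4 arrays against 4 at matched times, and 10 collagens could be tested. Col18a1 stood at 2.51, 2.22, 3.13 and 2.84 without the BMP2 label (8 h untreated, 8 h ADR, 16 h untreated, 16 h ADR) and at 1.30, 1.16, 2.02 and 1.87 with it. No array with the BMP2 label reached the lowest array without it, and each of the 4 pairs fell, by 1.09 on average (-1.09 ± 0.064, adjusted p = 3.78e-08). Col7a1 also fell in 4 of 4 pairs, from 1.02, 0.80, 0.29 and 0.78 to 0.32, 0.62, -0.30 and 0.12 (-0.53 ± 0.097, adjusted p = 0.00109), with overlap between the groups across times. Col6a1 rose in 4 of 4 pairs, from -1.05, -0.93, -1.04 and -1.15 to -0.47, -0.53, -0.58 and -0.45 (0.54 ± 0.070, adjusted p = 7.41e-05), with no overlap. Without the BMP2 label Col6a1 lay near the lowest detected levels of those arrays, -1.244 to -0.945, and was undetected on the 8 h untreated array. With background correction its rise was 1.01. Its second probe was detected on 2 arrays of the set, both with the BMP2 label at 16 h, at -0.85 and -0.87.

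These were the 1 higher and 2 lower of 10, beside 24.4% of all genes tested, 11.4% higher and 13% lower, and the 3 calls held without each single array and under each scaling. Col4a1 (0.13 ± 0.074), Col4a2 (0.09 ± 0.065) and Col5a1 (-0.05 ± 0.067) did not pass. Of the related genes with the BMP2 label, Nid1 was 1.04 ± 0.065 higher, Ddr2 0.76 ± 0.075 higher, Ddr1 lower at -0.77 ± 0.080 and Lama5 lower at -0.70 ± 0.086. Of 18 biosynthesis genes 2 were higher and 3 lower, with Serpinh1 at -0.29 ± 0.065. The summed epithelial markers were 13.4 to 16.2 on the 4 arrays with the BMP2 label and 17.7 to 27.7 on the 4 without it, and the summed fibroblast markers 113 to 129 and 83.9 to 110. Summed chondrocyte markers were 8.06 to 9.73 with the BMP2 label and 10.1 to 13.8 without it, with Comp, Matn1, Matn3 and Hapln1 undetected. Summed endoderm and trophoblast markers were 4.96 to 6.05 and 4.08 to 4.97, with Sox17, Foxa2, Afp and Lama1 undetected. The part of these markers in the differences was not tested.

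The ADR label in the primary set passed for 1 collagen of 10, beside 0.795% of all genes, 0.477% higher and 0.318% lower. Col16a1 stood at -0.60, -0.65, -0.78 and -0.32 without the ADR label (8 h untreated, 8 h BMP2, 16 h untreated, 16 h BMP2) and at -0.36, -0.06, -0.15 and 0.03 with it. It was higher in 4 of 4 pairs (0.45 ± 0.080, adjusted p = 0.016), with the groups overlapping across pairs. The call was lost with background correction (adjusted p = 0.122), without the BMP2 array at 8 h (0.139), without the untreated array at 16 h (0.0756) and without the ADR array at 16 h (0.0617). Col18a1 was lower in 4 of 4 pairs and did not pass (-0.22 ± 0.064, adjusted p = 0.213).

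Between 8 h and 16 h in the primary set, 4 arrays against 4, Col18a1 rose in 4 of 4 pairs (0.67 ± 0.064, adjusted p = 6.28e-06) and Col7a1 fell in 4 of 4 (-0.47 ± 0.097, adjusted p = 0.0021). The counts were 2 higher and 3 lower of 10, beside 46.0% of all genes, 11.7% higher and 34.3% lower, with a median of -0.105. The others were Col5a1 (0.20 ± 0.067), which missed without any 1 of the 6 treated arrays (adjusted p = 0.0651 to 0.12), Col4a2 (-0.22 ± 0.065), which missed without the BMP2 array at 8 h (0.0554) or 16 h (0.0538), and the dim Col28a1 (-0.29 ± 0.070). Scaling to the array median moved the median over all genes to 0.094 and the share of higher calls from 25.5% to 86.5%, and gave 3 collagens higher, Col16a1 among them (0.31), and 1 lower, without Col4a2 (-0.02) and Col28a1 (-0.09), which also missed with background correction (adjusted p = 0.143 and 0.0657) and with quantile normalization (0.0778 and 0.137). Col18a1 and Col7a1 passed under both scalings. Without the BMP2 array at 8 h 2 collagens passed, and 3 without the BMP2 array at 16 h or the ADR array at 8 h.

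The last comparisons test whether the effect of a label differed between the sets, over the 10 collagens detected on at least 2 arrays of each. For BMP2, Col18a1 had effects of 1.07 in the transformed set and -1.09 in the primary set, a difference of 2.16 ± 0.11 (adjusted p = 1.66e-10). The transformed effect averages BMP2 at 12 h against 0 h with BMP2 added to ADR, and agent and time cannot be told apart in the former. In the primary set the BMP target Id1 was higher with the ADR label, not with the BMP2 label, as given above. The p53 target Cdkn1a was higher there with the BMP2 label in each matched pair. In the transformed set Id1 did not rise with BMP2 alone. Col6a1 had effects of -0.26 and 0.54 (difference -0.79 ± 0.091, adjusted p = 1.59e-06), and its transformed effect averages -0.04 for BMP2 alone, which did not pass, with -0.47 for BMP2 added to ADR. Its primary levels were near background, and with background correction the difference was -1.32. In all 3 collagens differed upward and 4 downward of 10, beside 56.7% of all genes tested, 26.6% upward and 30.1% downward. For ADR, 2 differed upward and 3 downward of 10, beside 19.9% of all genes, 8.34% upward and 11.6% downward. Col4a1 had ADR effects of -0.58 and 0.15 (difference -0.73 ± 0.11, adjusted p = 0.000237), and Col4a2 of -0.42 and 0.07 (-0.49 ± 0.083, adjusted p = 0.000684). The transformed ADR effect averages ADR at 12 h against 0 h with ADR added to BMP2. In the former, agent and time cannot be told apart. For Col4a1 the former was -0.35, which did not pass, and the latter -0.81. For Col4a2 the former was -0.25, which did not pass, and the latter -0.6.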

How the data were processed

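Total RNA was labelled with Cy3 and hybridised to Illumina BeadChips, and GenomeStudio 2011.1 was used, per the labels and the submitters' processing notes. The deposited intensity values are signals without background correction or normalization, beside detection values that equal 1 minus a p-value, as the deposited columns show. The deposited log2 values were, as tested on 15 arrays, the log2 signal minus the array's 75th percentile and the probe's median (largest departure 0.0006). The probe constant was added back. For BMP2 at 12 h, both genotypes hold identical deposited signals, although the Smad1-/- array has log2 and detection values of its own, so its signals were recovered from its own log2 values, 99.756% within 0.01 of a step of the scanner's rounding, and used in the alternatives alone. Of 24613 probes, 20984 carried 1 gene symbol, 1 several and 3628 none in the platform annotation. Detection at p below 0.05 on at least 2 arrays of a fit was required, in each set for differences between sets. Models were fitted with limma 3.58.1 in R 4.3.3, with terms for genotype or time and agent, with Benjamini-Hochberg adjustment over all genes tested, and checked on simulated data. Where a gene was undetected throughout a group, "at least" folds use the lowest detected level of each array. All members are accounted for, those passing in a comparison by their levels on single arrays or ranges; of each other list, up to 4 passing genes with the largest differences are named. The members and lists were chosen with earlier results of these data known. Alternatives were other scalings, background correction with neqc, detection filters, probe rules, variance models and leaving out single arrays. Promoter windows are from RefSeq (GRCm38.p6). Nothing says that the arrays came from separate cultures.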

Additional observations from a re-analysis of the deposited data

Results flagged for a closer look

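12 effects differed between the sets by limma's test of the difference itself, transformed minus primary, over 10 collagens tested for each agent. Of all genes tested, 56.7% differed for BMP2 and 19.9% for ADR. For BMP2 they were Col18a1 (2.16, effects 1.07 and -1.09), Col6a1 (-0.79, effects -0.26 and 0.54), Col10a1 (0.74, effects 0.75 and 0.01), Col4a1 (-0.45, effects -0.31 and 0.13), Col5a1 (-0.39, effects -0.44 and -0.05), Col7a1 (0.36, effects -0.17 and -0.53) and Col4a2 (-0.33, effects -0.24 and 0.09). For ADR they were Col10a1 (0.84, effects 0.68 and -0.16), Col4a1 (-0.73, effects -0.58 and 0.15), Col4a2 (-0.49, effects -0.42 and 0.07), Col18a1 (0.48, effects 0.26 and -0.22) and Col6a1 (-0.33, effects -0.31 and 0.02). The transformed effects of both agents rest in part on the untreated arrays at 0 h, where agent and time cannot be told apart. Without the Smad1-/- array with both agents, the differences of Col10a1 were 0.53 and 0.64 and still passed. That of Col7a1 was lost under scaling to the array median (adjusted p = 0.0857) and without 10 single arrays in turn (adjusted p = 0.0509 to 0.128), and that of Col6a1 for ADR with background correction (adjusted p = 0.052) and without 4 single arrays in turn (adjusted p = 0.0525 to 0.0634). Without the primary ADR array at 16 h the difference of Col7a1 was 0.21.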

How the results depend on the processing

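No pairing by replicate was possible because each condition has 1 array and every array carries the same replicate number. The arrays were matched only by genotype or time, which the fits within a set already hold as a term. Over single collagens that passed in the main fits, 649 of 771 results under other settings and 827 of 952 without 1 array kept their direction and their side of the threshold, 122 and 125 kept the direction but no longer passed, and 0 reversed. Collagens that did not pass in a main fit are not in these totals, so calls gained under another setting are not counted. Requiring detection on every array left 7 collagens passing for transformed against primary, 3 for BMP2 in the transformed set and 3 for the ADR effect between sets, because fewer genes were tested. A joint fit of all arrays gave 1 for the genotype. Requiring an absolute log2 change of at least 1 left 0 for BMP2, 0 for ADR and 0 for ADR added to BMP2 in the transformed set, 3 for BMP2 added to ADR, 0 for the interaction, 0 for ADR, 1 for BMP2 and 0 for time in the primary set, and 0 for the ADR and 1 for the BMP2 effect between sets. Background correction gave 0 for ADR in the transformed set, 5 for the interaction, 0 for ADR and 3 for time in the primary set. Quantile normalization gave 3 for time, scaling to the array median 0 for ADR in the transformed set and a robust variance 5. Without a detection filter there were 0 for ADR in the transformed set, 25 for time and 13 for the BMP2 effect between sets. Apart from what the construction of a setting shows, the cause was not tested.

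Without single arrays the counts were 19 to 21 for transformed against primary, 0 to 1 for the genotype, 4 to 9 for BMP2, 0 to 2 for ADR, 5 to 16 for ADR added to BMP2, 12 to 15 for BMP2 added to ADR and 2 to 7 for the interaction. They were 0 to 2 for ADR, 3 to 4 for BMP2 and 2 to 7 for time in the primary set, and 4 to 6 for the ADR and 6 to 8 for the BMP2 effect between sets. Over all genes, 10 passed for the genotype, against 0 with background correction, 1 with quantile normalization and 0 with the array median. For ADR in the transformed set 528 passed (27.1% higher), against 54 (61.1%), 375 (50.9%) and 455 (15.4%). For ADR in the primary set 75 passed (60% higher), against 28 (82.1%) with background correction and 109 (88.1%) with the array median. For time 4336 passed (25.5% higher), against 2778 (42.4%), 3135 (43.8%) and 3280 (86.5%). Without a detection filter, the genes passing numbered 34 for the genotype, 336 for ADR, 6784 for ADR added to BMP2 (26.2% higher) and 7324 for BMP2 (67.2% higher) in the transformed set, 3123 for the interaction (38.1% higher) and 12186 for time (9.5% higher). For the genotype, the mean of the probes gave 0, a robust variance 2 and the joint fit 74. For transformed against primary, detection on every array gave 4819 instead of 7324. Requiring an absolute log2 change of at least 1 cut every count, to between 3 and 1620 genes. Signals near background limit the dim collagens: undetected probes had median levels of -1.66 to -1.24.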

Other observations

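Both measured chains of type IX collagen, a molecule on cartilage fibrils, were highest with both agents in the transformed set, Col9a3 at 2.17 and 2.42 and Col9a2 at -0.96 and -0.99, while Col9a1, the third chain, was detected on no array. Col9a2 was detected only on the arrays with both agents and tested through them alone. Of 6 chondrocyte markers, 3 were tested in the transformed set, and when ADR was added to BMP2 Comp was higher (0.28), Acan lower (-0.26) and Sox9 at 0.01 without passing.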
